A study of Mus musculus with 30 samples.

Results

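The genes followed here are 33 members of the transcription network that keeps mouse embryonic stem cells (ESCs) pluripotent, with genes of its chromatin, RNA-binding and signalling partners and of the first steps out of that state. They were picked by gene symbol from a list of known network genes, out of 25626 genes that have introns in the deposited splicing table. Of the 33, 32 have introns, and all 32 passed the expression filter that 13938 genes passed. Sox2, whose gene has no intron, was followed in the authors' RPKM values. CGR8 ESCs were compared with embryoid bodies at day 8, given 6 µM retinoic acid while they formed (EB8), and with neurons at 7 days in vitro made by a glutamatergic protocol (DIV7). The 6 µM retinoic acid is part of the protocol of the DIV7 libraries as well. Polyadenylated RNA was sequenced from 5 lines at these 3 stages in 2 replicates, A and B, for a total of 30 libraries and 15 groups.

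The edited lines were made from CGR8 with CRISPR-Cas9. In Puf60_pEx5_HOM exon 5 of Puf60 is included constitutively from both alleles, and in Puf60_pEx5_HET from 1 allele. Puf60_mEx5_HOM has exon 5 of Puf60 deleted on both alleles, and Rbm38KO has about 1300 bp of Rbm38 deleted. WT is the unedited parental line. Puf60 is a splicing factor that binds pyrimidine-rich tracts near 3′ splice sites, and Rbm38 is an RNA-binding protein that acts on splicing and mRNA stability. The series text speaks of 2 clones, but the labels do not tie a library to a clone. The p-values therefore rest on the spread between the 2 libraries of a group, which may be technical only. For expression this spread was pooled into 1 value per gene over all 15 groups, so it does not follow the spread at a single stage.

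Pou5f1 (also called Oct4), Sox2 and Nanog bind together at the enhancers of ESC genes, their own included. Around this trio, factors such as Esrrb, Klf2, Klf4, Klf5, Tfcp2l1 and Tbx3 carry the input of LIF and Wnt signalling and hold cells in the naive state of the early epiblast. When cells leave it, Otx2 and Fgf5 rise briefly as the formative epiblast state is passed, and the network is then shut down before neural genes come on. Expression is given below in CPM, the reads that span exon-exon junctions of a gene after scaling for library size. CPM of different genes were not compared, because they depend on the number of introns. Changes are log2 fold changes of CPM + 1 with their SE, from a limma fit on all 30 libraries with n = 2 per group. Calls of a gene needed an adjusted p (Benjamini-Hochberg) under 0.05 together with a change of 2-fold or more, and the share of all 13938 genes called in the same way stands beside the first count of each comparison.

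The ESC libraries held 28375996 to 38571969 junction reads, those of EB8 held 26152711 to 30675968, and those of DIV7 held 23204150 to 28655479. Rbm38 had 0 junction reads in all 6 Rbm38KO libraries, against 87.4 and 83.4 CPM in WT ESCs. Exon 5 of Puf60 was included in 93.2 to 99.0% of transcripts in Puf60_pEx5_HOM, 49.2 to 64.9% in Puf60_pEx5_HET and 7.49 to 13% in Puf60_mEx5_HOM, against 20.7 to 44.0% in WT. The inclusion left in Puf60_mEx5_HOM is above 0 although the line is labelled as lacking the exon. In the authors' single group values Puf60 itself was lower in this line, at 106.12 RPKM at ESC, 110.13 at EB8 and 77.97 at DIV7. WT had 146.65, 137.26 and 105.31 RPKM. The part of the Puf60 level in the results of Puf60_mEx5_HOM was not tested. In DIV7 cultures of WT the authors' RPKM were 1140.23 for the neuronal tubulin Tubb3, 111.47 for Gad1, an enzyme of GABA synthesis, 17.8 for the glutamate transporter Slc17a6 and 0.03 for the glutamate transporter Slc17a7. The GABA marker thus stood above both glutamate transporters. Markers of other cells were present too. In WT at DIV7 the 17 neuron genes with introns summed to 8551 and 9960 CPM. The sums were 8295 and 3596 CPM for 17 endoderm genes and 2710 and 2580 CPM for 11 astrocyte and radial glia genes. Such sums depend on the number of introns too, so they do not compare the amounts of these cell types.

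In WT ESCs the authors' RPKM, which are per length and can be set side by side, put Dppa5a first at 4107.69, followed by Pou5f1 at 1280.75, Zfp42 at 576.91, L1td1 at 460.38 and Utf1 at 375.39. Sox2 stood at 264.74 RPKM and Nanog at 213.81 RPKM, and Prdm14 was the lowest member at 6.53 RPKM. These are single group values with no error, so the order of near neighbours cannot be judged. Over the 5 lines the highest ESC value of a member was 1.12 to 3.32 times its lowest, with a median over the 33 members of 1.34. Gbx2 had the widest range of these.

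Between ESC and EB8 the network was shut down in WT. Of the 32 members, 31 were called lower at EB8, against 18.2% of all genes called lower, and 0 were called higher, against 21.7%. The median log2 change was -4.38, against 0.03 over all genes. Both members of the core trio with junction reads fell. Pou5f1 had 4.21 and 6.42 CPM at EB8, against 1752 and 1744 CPM at ESC (log2 change -8.14 ± 0.84, adjusted p = 1.38e-07), a 329-fold lower mean. Nanog had 1.31 and 1.36 CPM at EB8, against 192 and 219.9 CPM at ESC (-6.47 ± 0.52, adjusted p = 2.69e-09). Sox2, which neural progenitors also express, stood at 95.61 RPKM at EB8, against 264.74 RPKM at ESC.

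The changes between those of Pou5f1 and Nanog in size belonged to Zfp42 (Rex1), a zinc finger protein used as a marker of the naive state, Utf1, a chromatin-bound protein, and Dppa5a, an RNA-binding protein with a KH domain. Zfp42 had 1.51 and 2.18 CPM at EB8, against 293 and 327 CPM at ESC (-6.78 ± 0.43). Utf1 had 0.427 and 0.821 CPM at EB8, against 191 and 159.5 CPM at ESC (-6.77 ± 0.43). Dppa5a had 8.91 and 13.4 CPM at EB8, against 1144 and 1329 CPM at ESC (-6.69 ± 0.78). For each of these the libraries of the 2 stages lay far apart. By role, all 13 naive transcription factors, all 6 chromatin-associated and Dppa genes and all 5 signalling and other ESC genes were called lower, with medians of -4.28, -5.58 and -4.85.

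The smallest changes were those of Lin28b, Gbx2 and Jam2. Lin28b, which blocks maturation of the let-7 microRNAs and is also used by neural progenitors, had 16.5 and 13.6 CPM at EB8, against 17 and 13.6 CPM at ESC (-0.02 ± 0.15, adjusted p = 0.905), and it was the 1 member not called. Gbx2, a homeobox gene that acts downstream of LIF in ESCs and later in the hindbrain, had 6.58 and 4.02 CPM at EB8, against 11.4 and 12.3 CPM at ESC (-1.06 ± 0.24, adjusted p = 0.000364). Jam2, a junctional adhesion molecule, was -1.19 ± 0.17. In bulk RNA, fewer cells of a type and less RNA per cell cannot be told apart, so these falls describe the culture as a whole.

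From EB8 to DIV7 in WT, 6 of the 32 members were called lower, against 12.7% of all genes, and 3 were called higher, against 17.6%. All 3 RNA-binding genes of developmental timing fell at this later step. Lin28a, the paralog of Lin28b, had 2.14 and 2.58 CPM at DIV7, against 32.4 and 25.8 CPM at EB8 (-3.16 ± 0.59, adjusted p = 0.000132). Lin28b had 3.36 and 3.38 CPM at DIV7, against 16.5 and 13.6 CPM at EB8 (-1.87 ± 0.15, adjusted p = 3.54e-10). Trim71, an RNA-binding ubiquitin ligase that is itself a let-7 target, had 1.21 and 0.699 CPM at DIV7, against 5.95 and 5.83 CPM at EB8 (-1.83 ± 0.27).

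The other 3 that fell were Sall4, a zinc finger factor that binds Pou5f1 and Nanog, Dppa4, a chromatin protein of the early embryo, and Klf2, a Krüppel-like factor of the naive state. Sall4 had 1.75 and 0.883 CPM at DIV7, against 13.2 and 13.4 CPM at EB8 (-2.66 ± 0.36, adjusted p = 2.83e-06). Dppa4 had 0.536 and 0.883 CPM at DIV7, against 3.13 and 5.86 CPM at EB8 (-1.65 ± 0.53, adjusted p = 0.00991). Klf2 had 1.71 and 1.18 CPM at DIV7, against 4.95 and 8.63 CPM at EB8 (-1.64 ± 0.48, adjusted p = 0.00574). Pou5f1 and Nanog did not pass the test at this step, with 3.46 and 8.76 CPM and 0.821 and 1.29 CPM at DIV7.

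The 3 that rose were Esrrb, Nr5a2 and Klf4. Esrrb, an orphan nuclear receptor, had 36.6 and 35.3 CPM at DIV7, against 3.84 and 6.34 CPM at EB8 (2.63 ± 0.23, adjusted p = 4.02e-09), a 7.07-fold higher mean. Nr5a2, a nuclear receptor that binds regulatory DNA of Pou5f1, had 6.04 and 5.11 CPM at DIV7, against 1.42 and 2.01 CPM at EB8 (1.28 ± 0.17, adjusted p = 6.04e-07). Klf4, a Krüppel-like factor, had 17.9 and 9.57 CPM at DIV7, against 5.07 and 4.87 CPM at EB8 (1.24 ± 0.23, adjusted p = 6.2e-05). In none of these 3 did the DIV7 and EB8 libraries overlap, which adds no support since they were picked by the test. Over the whole course all 32 members were called lower at DIV7 than at ESC, against 25.4% of all genes. The smallest folds of mean CPM were 3.05-fold in Gbx2, 3.14-fold in Jam2, 4.53-fold in Lin28b, 5.1-fold in Klf4 and 7.61-fold in Esrrb, and Pou5f1 was 286-fold lower. Eras, a Ras-like gene of ESCs, had no read in either WT library at DIV7, which, with a floor of 3 reads over the group, puts it at least 133-fold lower than in WT ESCs.

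The Esrrb reads of the DIV7 cultures carried another first exon than those of the stem cells. In the GENCODE M21 annotation of mm10 (GRCm38), the gene lies on the plus strand of chromosome 12. Esrrb-202 and Esrrb-203 start with an exon at chr12:86421644-86421964, which holds a start codon and is joined to exon 2 at base 86470146. Esrrb-206 starts at base 86470117, just before that exon 2 boundary. Reads joining the upstream first exon to exon 2 numbered 251 and 187 in WT at DIV7 and 23 and 56 at EB8, against 11 and 8 at ESC. Reads joining exon 2 to exon 3, which all of these transcripts share, numbered 196 and 171 at DIV7 and 28 and 37 at EB8, against 1523 and 1552 at ESC. In WT ESCs the upstream junction was thus 0.722 and 0.515% of the shared one, and 250 and 240 reads ran unspliced across the start of exon 2, against 0 and 0 at DIV7. The same was seen in each edited line, where the DIV7 libraries held 167 to 371 reads of the upstream junction and 0 to 5 reads across the start of exon 2. A further first exon at chr12:86361117-86361538 had at most 17 reads in any library. Reads of the upstream junction fix the end of the first exon and do not place its start, which is taken from the annotation. The promoter of the annotated start at base 86421644 is shown because its exon holds the junction end seen at DIV7. It is chr12:86421394-86421673 on the plus strand, from RefSeq GRCm38.p6, and the capitals mark the first 30 bases from the annotated start:
Esrrb upstream promoter: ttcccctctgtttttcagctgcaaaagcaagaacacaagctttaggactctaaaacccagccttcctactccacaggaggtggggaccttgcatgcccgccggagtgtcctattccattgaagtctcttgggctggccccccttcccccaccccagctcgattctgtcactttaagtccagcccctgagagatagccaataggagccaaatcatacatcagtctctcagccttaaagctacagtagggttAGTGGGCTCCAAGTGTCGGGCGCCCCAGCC
The sequence TCAAGGTCA, the motif that ESRRB itself binds, was on neither strand of any of the 30 RefSeq promoters of 23 members searched, the 300-base one that begins with the window above included. It is in 0.423% of 32851 mouse promoters of that 300-base length.

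Other motifs were searched on both strands of the same 30 member promoters, each covering 250 bases before to 50 bases after a start. The octamer ATGCAAAT, bound by POU-domain factors, was in 2 of them (6.67%), those of Zfp42 and Zfp296, against 1.74% of all promoters. The GC box GGGCGG was in 14 (46.7%), against 35.7%, and TATAAA in 5 (16.7%), against 13.6%. These counts are descriptions of letters in a short window near the start.

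Few splicing events of members could be tested along the WT course. Splicing is given as percent spliced in (PSI), and calls of an event needed a difference of 10 points or more besides an adjusted p under 0.05. Of 12 testable events in 8 members, 2 were called between ESC and EB8, against 13.6% of all events. A 263-nt exon of Zfp42 at chr8:43305680-43305942 was included at 33.6 and 36.5% at EB8, against 3.06 and 2.98% at ESC (32 points, adjusted p = 1.01e-08). It rests on 25 and 36 reads at EB8, against 3312 and 3487 at ESC, and was at 7.82 and 2.68% at DIV7 (adjusted p = 0.0105 against EB8), the 1 of 4 events called at that step, against 14.7% of all events. The later call was lost without WT B at EB8 (adjusted p = 0.0580) or without WT B at DIV7 (adjusted p = 0.0944), and the shares of events called lay near those of all events. The second event was an intron of Tbx3 at chr5:119678833-119680394, with 4.0 and 0% at EB8, against 28.8 and 33.5% at ESC (adjusted p = 0.000483). In WT its intron reads all came from the downstream end (89 and 120 at ESC) and 0 from the upstream end, so the value does not show a retained whole intron.

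In ESCs of Puf60_pEx5_HOM most naive genes sat slightly above WT, while Gbx2 and Fgf5 sat below it. Gbx2 had 5.66 and 5.08 CPM in Puf60_pEx5_HOM, against 11.4 and 12.3 CPM in WT (-1.01 ± 0.24, adjusted p = 0.00451). It was the 1 member of 32 called, and it was lower, against 1.50% of all genes called lower. Its change lay close to the fold limit, and it lost the call without Puf60_pEx5_HOM B (-0.95), without WT B (-0.96), with quantile scaling (-0.86) and with a pseudocount of 4 (-0.76). Fgf5, the ligand that marks the formative epiblast, had 1.14 and 1.51 CPM in Puf60_pEx5_HOM, against 2.58 and 3.57 CPM in WT (-0.80 ± 0.17, adjusted p = 0.0024), which is under the fold limit on this scale.

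Among genes with adjusted p under 0.05 at any fold, 4 members were higher in Puf60_pEx5_HOM, against 9.08% of all genes, and Gbx2 and Fgf5 were the 2 lower ones, against 8.55%. Prdm14, which restrains FGF signalling and DNA methylation in naive cells, had 19.7 and 23.6 CPM in Puf60_pEx5_HOM, against 11.6 and 13.3 CPM in WT (0.75 ± 0.13, adjusted p = 0.000298). Fgf4, the ligand that drives ERK signalling in ESCs, had 58.5 and 51.6 CPM in Puf60_pEx5_HOM, against 40.4 and 27.5 CPM in WT (0.70 ± 0.20, adjusted p = 0.0148). Tcl1, a coactivator of AKT, had 44.5 and 49.1 CPM in Puf60_pEx5_HOM, against 27.6 and 30.8 CPM in WT (0.66 ± 0.14, adjusted p = 0.0021). Nr0b1, an orphan receptor that acts with Pou5f1, had 42.5 and 43.0 CPM in Puf60_pEx5_HOM, against 27.3 and 27.9 CPM in WT (0.61 ± 0.14, adjusted p = 0.00313). In all 4, both Puf60_pEx5_HOM libraries lay above both WT libraries, which adds no support since they were picked by the test.

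The same direction held for most of the list. Both libraries of Puf60_pEx5_HOM lay above both of WT for 25 members, against 32% of all genes, and below for 3, against 29.1%. The median change was 0.42, against 0.01 over all genes. The fit on all 30 libraries takes 1 spread per gene from all stages, and that spread is wide for genes that vary at EB8 and DIV7. For such genes the same pooling can make a p-value at DIV7 smaller than the spread at DIV7 alone would give. With ESC libraries fitted alone, 19 members were higher at an adjusted p under 0.05 of any size, against 12.2% of all genes. They included Dppa3, which guards maternal DNA methylation marks, at 57.7 and 61.8 CPM in Puf60_pEx5_HOM against 27.1 and 38.6 CPM in WT (0.86, adjusted p = 0.0209). Klf2 had 393 and 459 CPM in Puf60_pEx5_HOM, against 272 and 230.1 CPM in WT (0.76, adjusted p = 0.0052). Esrrb had 423 and 445 CPM in Puf60_pEx5_HOM, against 258 and 290.3 CPM in WT (0.66, adjusted p = 0.000953).

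Nanog had 289 and 303 CPM in Puf60_pEx5_HOM ESCs, against 192 and 219.9 CPM in WT (0.53, adjusted p = 0.00378 with ESC fitted alone). Dppa5a had 1789.8 and 2016 CPM in Puf60_pEx5_HOM, against 1144 and 1329 CPM in WT (0.62, adjusted p = 0.00216 with ESC fitted alone). Pou5f1 did not pass in either fit, with 1958 and 1837 CPM in Puf60_pEx5_HOM, against 1752 and 1744 CPM in WT. Otx2, a homeobox factor of the formative state, did not go with Gbx2 and Fgf5. It had 23 and 25.1 CPM in Puf60_pEx5_HOM, against 17.2 and 17.4 CPM in WT (0.45, adjusted p = 0.027 with ESC fitted alone). In the authors' deposited table the FDR of this comparison was under 0.05 for 4 of the 33 members, against 8.55% of its genes: Prdm14, Nr0b1 and Jam2 higher and Gbx2 lower.

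**Figure D1:**
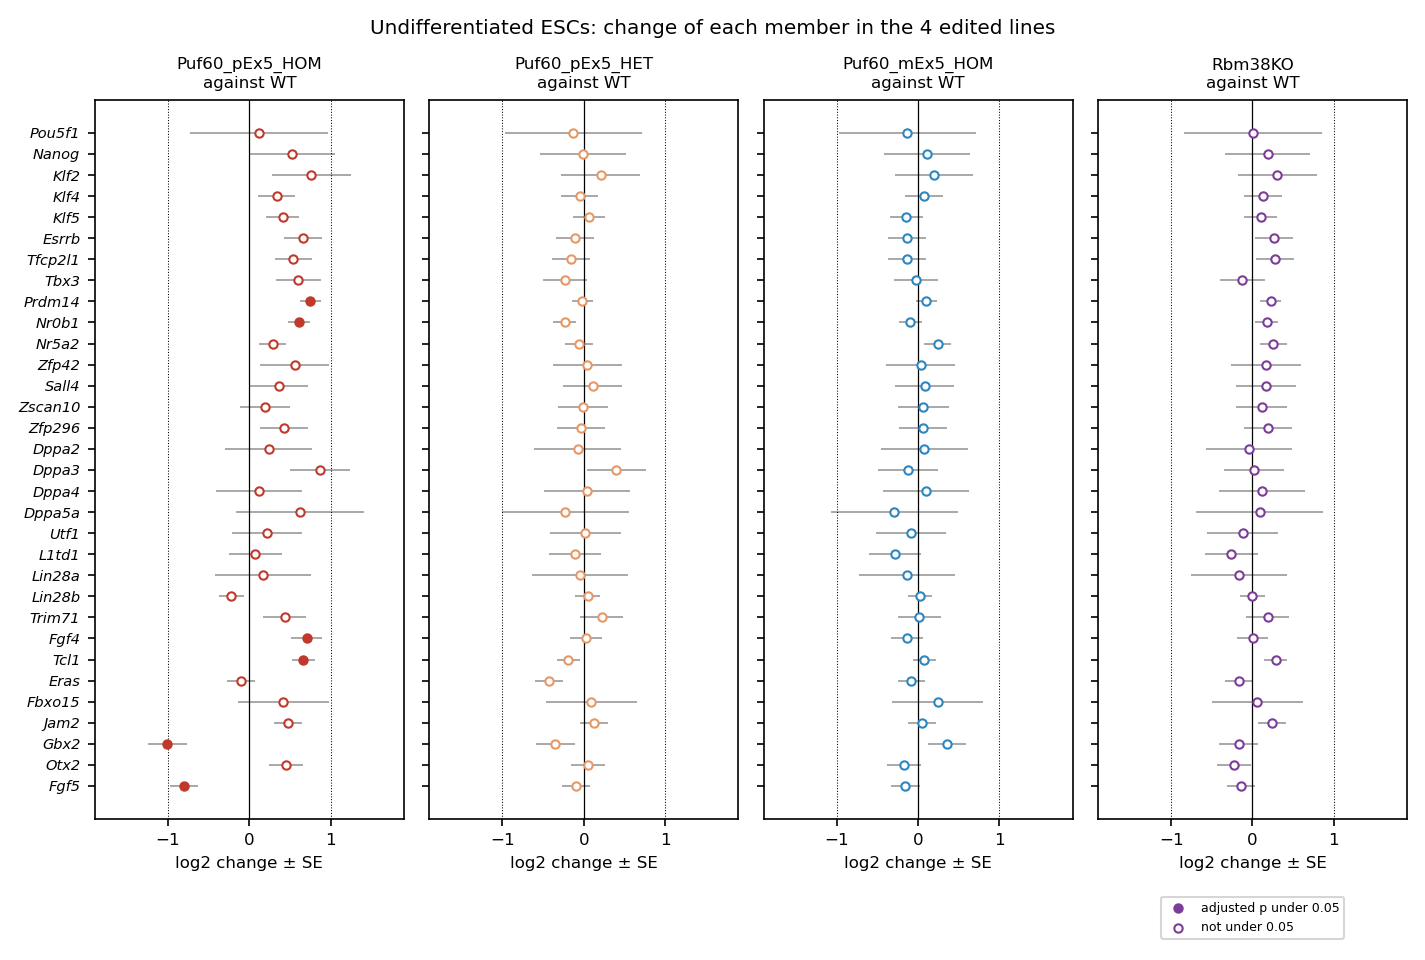
Log2 change ± SE (x axis) of each member (y axis) in ESCs of the 4 edited lines against WT, from the fit on all 30 libraries, with filled points where the adjusted p was under 0.05 and dotted lines at a 2-fold change. In Puf60_pEx5_HOM 28 of 32 points lie right of 0, with Gbx2 at -1.01 and Fgf5 at -0.80 on the left, and the other 3 panels hold no filled point.

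No member passed the test in ESCs of the other 3 lines. By sign 13 of 32 members were higher than in WT in Puf60_pEx5_HET, 17 in Puf60_mEx5_HOM and 23 in Rbm38KO. Their medians were -0.03, 0.02 and 0.11, against 0, -0.003 and 0 over all genes. Every edited line was compared with the same 2 WT libraries. In Puf60_pEx5_HET, Puf60_mEx5_HOM and Rbm38KO ESCs, 0 of 32 members were called by limma, against 0.0359%, 0.0789% and 0.0359% of all genes. At an unadjusted p under 0.05 were 1, 0 and 0 members, against 492, 824 and 858 of 13938 genes. The 2 members with the largest changes in Puf60_pEx5_HET were Eras, with 6.52 and 3.97 CPM against 8.07 and 6.43 CPM in WT (-0.43 ± 0.17), and Dppa3, with 40.4 and 45.8 CPM against 27.1 and 38.6 CPM in WT (0.40 ± 0.37). In Puf60_mEx5_HOM they were Gbx2, with 14.7 and 16.2 CPM against 11.4 and 12.3 CPM in WT (0.36 ± 0.24), and Dppa5a, with 965 and 1048 CPM against 1144 and 1329 CPM in WT (-0.29 ± 0.78). In Rbm38KO they were Klf2, with 284 and 337 CPM against 272 and 230.1 CPM in WT (0.31 ± 0.48), and Tcl1, with 34.9 and 36.6 CPM against 27.6 and 30.8 CPM in WT (0.29 ± 0.14). Compared directly, Puf60_mEx5_HOM against Puf60_pEx5_HOM had Gbx2 higher (1.37 ± 0.24, adjusted p = 0.00031), the 1 member called, against 2.47% of all genes. Gbx2 libraries ran in the order of exon 5 inclusion from 5.08 and 5.66 CPM in Puf60_pEx5_HOM through 8.38 and 9.78 CPM in Puf60_pEx5_HET to 14.7 and 16.2 CPM in Puf60_mEx5_HOM, with WT at 11.4 and 12.3 CPM between the last 2, and the step between Puf60_pEx5_HET and WT did not pass the test.

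Of the wider pathway lists, the 40 measured other naive and ground state genes had 1 member called higher in Puf60_pEx5_HOM ESCs (Khdc3, 1.28) and 0 lower, with a median of 0.31, against 0.969% of all genes called higher and 1.50% lower. Of 11 formative and primed epiblast genes, 0 were called higher and 1 lower (Cdh2, -1.06), with a median of -0.48. Of 14 genes of Nodal and BMP signalling 1 was called higher, Lefty2, a secreted Nodal inhibitor (2.09). Of 19 FGF and ERK genes and 10 LIF and STAT3 genes 0 were called by limma, while 6 and 3 of them had an adjusted p under 0.05 at any fold and 6 and 4 an unadjusted p under 0.05. Over all 13938 genes 9.08% were higher and 8.55% lower at that adjusted p, and 4145 genes had such an unadjusted p. Markers of other cells moved too. Of 10 fibroblast and matrix genes 5 were called lower, and their summed level was 167 and 140.3 CPM in Puf60_pEx5_HOM, against 351 and 483 CPM in WT. Of 15 germ cell genes 3 were called higher, with sums of 331 and 363 CPM in Puf60_pEx5_HOM, against 256 and 265 CPM in WT. The part of such cells in the levels of the members was not tested.

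Splicing of 3 members differed in Puf60_pEx5_HOM ESCs: Tcl1, L1td1 and Dppa4. Of 42 testable events in 15 members, 4 were called, against 0.956% of all events, and those 4 lie in these 3 genes, since 2 of them are the complementary splice sites of L1td1. With no limit on mean PSI, which adds events to the test, all 4 lost the call (adjusted p 0.104 to 0.203). In Puf60_pEx5_HET, Puf60_mEx5_HOM and Rbm38KO 0 of the 42 events were called by limma, against 0.0410%, 0% and 0% of all events, while 3, 3 and 0 had an unadjusted p under 0.05.

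Exon 2 of Tcl1 was skipped more often in Puf60_pEx5_HOM. It was included at 67.1 and 72.2% in Puf60_pEx5_HOM, 84.0 and 75.2% in Puf60_pEx5_HET, 92.1 and 91.3% in Puf60_mEx5_HOM and 87.0 and 84.1% in Rbm38KO, against 87.9 and 89.0% in WT. The difference between Puf60_pEx5_HOM and WT was -18.8 points (adjusted p = 0.0105), on 406 to 889 reads per library, and it lost the call without either WT library or without Puf60_pEx5_HOM A (adjusted p 0.0657 to 0.0943). The exon lies at chr12:105218659-105218829 on the minus strand of mm10, is coding throughout and spans 171 nt or 57 codons, a multiple of 3. The splicing table scores its first 98 nt, and of the reads that leave the exon 93.8 to 97.3% did so from the 171-nt end in the 10 ESC libraries, and the rest from an end that makes it shorter. Tcl1-203 is the annotated transcript without the exon. Its sequence is shown because it is the protein-coding stretch that the lines differed in, and capitals mark the 98 nt that the splicing table scores:
Tcl1 exon 2: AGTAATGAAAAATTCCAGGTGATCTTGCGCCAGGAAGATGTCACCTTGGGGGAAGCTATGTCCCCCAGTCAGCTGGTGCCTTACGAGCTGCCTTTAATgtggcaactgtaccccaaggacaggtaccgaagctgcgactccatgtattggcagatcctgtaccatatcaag

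In L1td1, which codes for an RNA-binding protein derived from the LINE-1 retrotransposon, the choice between a pair of 3′ splice sites 20 nt apart moved. The upstream site was used in 43.1 and 41.0% of reads in Puf60_pEx5_HOM, 30.3 and 29.5% in Puf60_pEx5_HET, 23.8 and 21.7% in Puf60_mEx5_HOM and 25.4 and 26.2% in Rbm38KO, against 26.6 and 27% in WT. The difference was 15.2 points (adjusted p = 0.00396), and the Puf60_pEx5_HOM libraries lay above all 8 others. The exon start is at base 98733123 or 98733143 of chromosome 4, ahead of the annotated start codon at base 98733203. The choice thus changes the leader and not the annotated start codon. The bases that the upstream site adds begin with ATG, and their effect on translation was not tested. The junction region chr4:98733123-98733152 on the plus strand is shown because use of the upstream site adds its capitals, 20 nt of which 15 (75.0%) are pyrimidines with a run of 7 T, and those same bases stand just before the downstream site:
L1td1 exon 3 start: ATGACTTTTTTTCCTTTTAGgattttgaac

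In Dppa4, which pairs with Dppa2 on chromatin, a short splice form was rarest in Puf60_pEx5_HOM. The short form joins base 48289100 to base 48291014 of chromosome 16 and is Dppa4-201, while Dppa4-202 continues for 105 nt and adds a 51-nt exon, together 156 nt or 52 codons. Reads of the short junction numbered 11 and 9 in Puf60_pEx5_HOM, 42 and 14 in Puf60_pEx5_HET, 221 and 172 in Puf60_mEx5_HOM and 68 and 46 in Rbm38KO, against 104 and 56 in WT. The long form thus made up 99.1 and 99.2% in Puf60_pEx5_HOM, 95.9 and 98.1% in Puf60_pEx5_HET, 77.0 and 84.0% in Puf60_mEx5_HOM and 94.0 and 95.6% in Rbm38KO, against 91.3 and 93.9% in WT. The tested event, which spans the bases between those ends, is scored as a retained intron of 1913 nt. Its PSI was 97.95 and 98.47% in Puf60_pEx5_HOM, against 81.72 and 88.44% in WT, higher by 13.1 points (adjusted p = 0.00439). The share of the long form itself was not tested. The opposite deviation of Puf60_mEx5_HOM, -18.3 points, did not pass the test (adjusted p = 0.816), although its libraries lay below both WT libraries. Without WT A the Puf60_pEx5_HOM difference was 9.77 points, just under the limit. The sequence that the long form adds is shown from chr16:48289101-48289205 and chr16:48289328-48289378 on the plus strand, with the 51-nt exon in capitals:
Dppa4 long form: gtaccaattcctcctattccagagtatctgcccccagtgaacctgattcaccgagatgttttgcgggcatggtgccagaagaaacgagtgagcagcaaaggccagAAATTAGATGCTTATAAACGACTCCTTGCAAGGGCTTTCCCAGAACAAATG

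**Figure D2:**
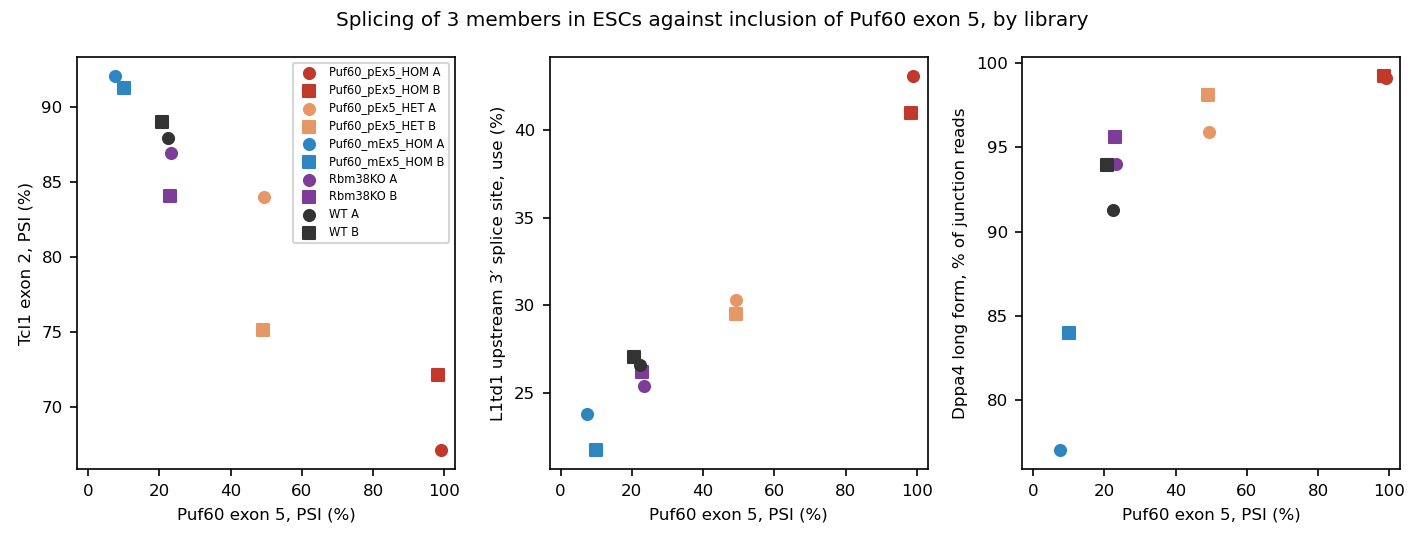
Splicing of Tcl1 exon 2, the L1td1 upstream 3′ splice site and the Dppa4 long form (y axes, %) in the 10 ESC libraries, against inclusion of Puf60 exon 5 in the same library (x axis, %). The Puf60_pEx5_HOM libraries, at 98.3 to 99.0% on the x axis, are lowest for Tcl1 (67.1 and 72.2%) and highest for L1td1 (43.1 and 41.0%) and Dppa4 (99.1 and 99.2%), and the Puf60_mEx5_HOM libraries, at 7.49 and 10.03%, stand at the other end of each panel.

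The deepest cassette exons among the members were not called in Puf60_pEx5_HOM ESCs. A 172-nt exon of Zscan10, a zinc finger factor of the naive state, at chr17:23607217-23607388 was included at 85.5 and 84.9% in Puf60_pEx5_HOM, against 89.9 and 84.2% in WT. A 200-nt exon of Jam2 at chr16:84812899-84813098 was included at 93.5 and 91.3% in Puf60_pEx5_HOM, against 94.9 and 96.0% in WT (-3.03 points, adjusted p = 0.226). At EB8 and DIV7, where members have few reads, 0 of 7 and 0 of 3 events were called by limma in any edited line. At EB8 1.24% of all events were called in Puf60_pEx5_HOM, 0% in Puf60_pEx5_HET, 0.0571% in Puf60_mEx5_HOM and 0.00357% in Rbm38KO, and 3, 2, 2 and 1 member events had an unadjusted p under 0.05. At DIV7 the shares were 0.549%, 0%, 0.00376% and 0%, with 2, 1, 0 and 0 such events. A 254-nt exon of Lin28b at chr10:45470051-45470304 had the largest of these differences at DIV7, 81.8 and 75.0% in Puf60_pEx5_HOM against 50 and 56.9% in WT (adjusted p = 0.374).

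At EB8 no member was called in Puf60_pEx5_HOM against WT (0 of 32 by limma, against 1.66% of all genes). An unadjusted p under 0.05 was found for 4 of the 32 members, against 3192 of 13938 genes. The 2 largest changes were those of Dppa5a, with 25.2 and 21.3 CPM in Puf60_pEx5_HOM against 8.91 and 13.4 CPM in WT (1.02 ± 0.78, adjusted p = 0.494), and Nanog, with 4.01 and 2.96 CPM in Puf60_pEx5_HOM against 1.31 and 1.36 CPM in WT (0.93 ± 0.52, adjusted p = 0.314). In the authors' deposited table the FDR was under 0.05 for 1 of the 33 members, a lower one, against 4.87% of its genes. Sox2 had 94.35 RPKM in Puf60_pEx5_HOM, against 95.61 RPKM in WT. The shutdown of the network between ESC and EB8 was thus seen in Puf60_pEx5_HOM as well, with library medians of 2.55 and 1.94% of the line's own ESC level left, against 1.85 and 2.998% in WT.

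In Puf60_mEx5_HOM at EB8, 0 of 32 members were called by limma, against 1.64% of all genes. An unadjusted p under 0.05 was found for 5 of them, against 4277 of 13938 genes. In the authors' deposited table the FDR was under 0.05 for 3 of the 33 members, 1 higher and 2 lower, against 7.36% of its genes. By sign in the limma fit, 27 members were lower than in WT and 5 higher, with a median of -0.26, against 0.02 over all genes. With an adjusted p under 0.05 at any fold were 1 higher member, against 11.8% of all genes, and 2 lower ones, against 6.39%. Esrrb was higher, with 9.29 and 12.1 CPM in Puf60_mEx5_HOM against 3.84 and 6.34 CPM in WT (0.96 ± 0.23, adjusted p = 0.00725), and Klf4 lower, with 2.77 and 2.12 CPM against 5.07 and 4.87 CPM in WT (-0.80 ± 0.23, adjusted p = 0.0203). Lin28b was lower too, with 9.75 and 9.92 CPM in Puf60_mEx5_HOM against 16.5 and 13.6 CPM in WT (-0.56 ± 0.15, adjusted p = 0.014). Its paralog Lin28a had 13.1 and 12.0 CPM in Puf60_mEx5_HOM, against 32.4 and 25.8 CPM in WT, and passed both limits with EB8 libraries fitted alone (-1.14, adjusted p = 0.00126). The libraries of the 2 lines did not overlap for any of these 4 genes, which adds no support since they were picked by the test. Puf60_mEx5_HOM against Puf60_pEx5_HOM at EB8 had Esrrb called higher, with 9.29 and 12.1 CPM against 3.56 and 2.33 CPM (1.57 ± 0.23, adjusted p = 1.88e-05), and Nanog called lower, with 0.904 and 0.620 CPM against 4.01 and 2.96 CPM (-1.34 ± 0.52, adjusted p = 0.0466), against 9.99% of all genes called either way. The Nanog call was lost in 8 of 14 alternatives, among them leaving out any of the 4 libraries (adjusted p 0.0876 to 0.173). Markers of other cells differed at EB8 as well. Of 17 neuron genes 3 were called higher in Puf60_mEx5_HOM and 3 lower in Puf60_pEx5_HOM, with sums of 3117 and 3445 CPM in Puf60_mEx5_HOM and 1486 and 1308 CPM in Puf60_pEx5_HOM, against 2112 and 2195 CPM in WT. Endoderm genes summed to 1272 and 1090 CPM in Puf60_mEx5_HOM and 985 and 1218 CPM in Puf60_pEx5_HOM, against 1968 and 1532 CPM in WT. Astrocyte and radial glia genes summed to 800.1 and 783 CPM in Puf60_mEx5_HOM, against 529 and 564 CPM in WT. The part of these cell types in the EB8 levels of the members was not tested.

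Puf60_pEx5_HET and Rbm38KO had 0 of 32 members called by limma at EB8, against 0.115% and 0.0430% of all genes. At an unadjusted p under 0.05 were 2 and 0 members, against 1826 and 988 of 13938 genes. The largest changes in Puf60_pEx5_HET were those of Klf4, with 1.99 and 2.65 CPM against 5.07 and 4.87 CPM in WT (-0.85 ± 0.23, adjusted p = 0.122), and Trim71, with 4.12 and 3.72 CPM against 5.95 and 5.83 CPM in WT (-0.49 ± 0.27). In Rbm38KO they were those of Dppa5a, with 11.8 and 21.6 CPM against 8.91 and 13.4 CPM in WT (0.51 ± 0.78), and Dppa2, with 2.28 and 3.88 CPM against 1.57 and 2.83 CPM in WT (0.35 ± 0.53), and in both genes the libraries overlapped.

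At DIV7 many members were higher in Puf60_pEx5_HOM than in WT, and Klf4 was lower. Of 32 members 14 were called higher, against 0.868% of all genes, and 1 lower, against 1.70%. The median change was 0.78, against 0.04 over all genes, and both Puf60_pEx5_HOM libraries lay above both WT libraries for 24 members, against 33.4% of all genes. They lay below for 5 members (Klf4, Tbx3, Jam2, Nr5a2 and Klf5), against 20.4%, and of these Jam2 had an adjusted p of 0.0448 at a change of -0.51. The calls of higher members covered both core factors with junction reads, all 6 chromatin-associated and Dppa genes, 4 of 13 naive transcription factors, 1 of 3 RNA-binding timing genes, 1 of 5 signalling and other ESC genes and 0 of 3 formative and exit genes. The levels stayed a few percent of those in ESCs. The adjusted p given for DIV7 come from the fit on all 30 libraries, which pools the spread over stages. With DIV7 libraries fitted alone the adjusted p was 0.155 for Pou5f1, 0.0881 for Nanog and 0.141 for Dppa5a. In that fit 1 of the 32 members, Fgf4, was called higher.

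Pou5f1 had 38.1 and 75.6 CPM in Puf60_pEx5_HOM and 2.40 and 2.98 CPM in Puf60_mEx5_HOM, against 3.46 and 8.76 CPM in WT (Puf60_pEx5_HOM against WT 3.05 ± 0.84, adjusted p = 0.0226). Nanog had 7.69 and 10.4 CPM in Puf60_pEx5_HOM and 0.380 and 0.942 CPM in Puf60_mEx5_HOM, against 0.821 and 1.29 CPM in WT (2.29 ± 0.52, adjusted p = 0.00755). In both genes the Puf60_pEx5_HOM libraries lay above every library of Puf60_mEx5_HOM, Rbm38KO and WT, while Puf60_pEx5_HET was split between 6.33 and 53.4 CPM for Pou5f1 and 1.84 and 9.03 CPM for Nanog. Sox2 did not go with them. In the authors' deposited table it had 30.56 RPKM in Puf60_pEx5_HOM, against 43.7 RPKM in WT, with a log2 change of -0.42 (FDR 0.547).

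Among the chromatin-associated and Dppa genes, the folds of mean CPM were 6.6 in L1td1 to 8.73 in Utf1, with Dppa5a at 8.54. Dppa5a had 51.7 and 64.3 CPM in Puf60_pEx5_HOM and 2.53 and 2.43 CPM in Puf60_mEx5_HOM, against 4.82 and 8.76 CPM in WT (2.96 ± 0.78, adjusted p = 0.0181). Utf1 had 4.18 and 7.27 CPM in Puf60_pEx5_HOM and 0.295 and 0.432 CPM in Puf60_mEx5_HOM, against 0.429 and 0.883 CPM in WT (2.00 ± 0.43, adjusted p = 0.00514). Dppa2 and Dppa4, the partners on chromatin, were both higher than in WT. Within Puf60_pEx5_HOM, Dppa2 was at 3.86 and 2.08% of its ESC mean at EB8 and 2.97 and 5.36% at DIV7. Dppa4 was at 3.70 and 3.20% at EB8 and 2.36 and 4.81% at DIV7. With DIV7 fitted alone the adjusted p against WT was 0.131 for Dppa2 and 0.123 for Dppa4. Dppa2 had 4.36 and 7.87 CPM in Puf60_pEx5_HOM and 0.169 and 0.628 CPM in Puf60_mEx5_HOM, against 0.786 and 0.773 CPM in WT (1.95 ± 0.53). Dppa4 had 3.72 and 7.61 CPM in Puf60_pEx5_HOM and 0.591 and 0.549 CPM in Puf60_mEx5_HOM, against 0.536 and 0.883 CPM in WT (1.91 ± 0.53). Dppa3 and L1td1 completed the group. Dppa3 had 4.43 and 4.14 CPM in Puf60_pEx5_HOM and 0.295 and 0.471 CPM in Puf60_mEx5_HOM, against 0.429 and 0.846 CPM in WT (1.70 ± 0.37). L1td1 had 1.77 and 5.20 CPM in Puf60_pEx5_HOM and 0.211 and 0.196 CPM in Puf60_mEx5_HOM, against 0.357 and 0.699 CPM in WT (1.45 ± 0.32).

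The 4 naive transcription factors called higher were Klf2, Zfp42, Sall4 and Zscan10. Klf2 had 9.29 and 15.3 CPM in Puf60_pEx5_HOM and 1.65 and 0.824 CPM in Puf60_mEx5_HOM, against 1.71 and 1.18 CPM in WT (2.41 ± 0.48, adjusted p = 0.0032). Zfp42 had 6.35 and 9.64 CPM in Puf60_pEx5_HOM and 0.759 and 0.942 CPM in Puf60_mEx5_HOM, against 1.18 and 1.80 CPM in WT (1.84 ± 0.43). These levels stood clear of WT by several-fold and still far under those in ESCs. Sall4 had 3.83 and 6.48 CPM in Puf60_pEx5_HOM and 0.380 and 0.628 CPM in Puf60_mEx5_HOM, against 1.75 and 0.883 CPM in WT (1.40 ± 0.36). Zscan10 had 2.02 and 4.37 CPM in Puf60_pEx5_HOM and 0.169 and 0.196 CPM in Puf60_mEx5_HOM, against 0.393 and 0.883 CPM in WT (1.31 ± 0.31). Outside this group, Lin28a had 8.65 and 22.9 CPM in Puf60_pEx5_HOM and 2.02 and 1.22 CPM in Puf60_mEx5_HOM, against 2.14 and 2.58 CPM in WT (2.18 ± 0.59, adjusted p = 0.0202). Fgf4 had 1.13 and 1.62 CPM in Puf60_pEx5_HOM and no read in Puf60_mEx5_HOM, against 0.0714 and 0.221 CPM in WT (1.05 ± 0.20, adjusted p = 0.00115).

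Klf4 went the other way, and its WT libraries were the 2 highest of the 10. It had 2.84 and 3.35 CPM in Puf60_pEx5_HOM, 2.81 and 4.51 CPM in Puf60_pEx5_HET, 7.93 and 7.06 CPM in Puf60_mEx5_HOM and 4.21 and 7.80 CPM in Rbm38KO, against 17.9 and 9.57 CPM in WT. It was called lower in Puf60_pEx5_HOM (-1.79 ± 0.23, adjusted p = 4.36e-05), in Puf60_pEx5_HET (-1.63 ± 0.23, adjusted p = 0.000508) and in Rbm38KO (-1.06 ± 0.23, adjusted p = 0.0365), and these comparisons share the same 2 WT libraries, which differ from each other. Without WT A the Rbm38KO change was -0.64 and without Rbm38KO A it was -0.69, and the call was lost. Klf4 was the 1 member called in Puf60_pEx5_HET, against 0.574% of all genes, and the 1 member called in Rbm38KO, against 0.301%. In these lines 11 and 2 members had an unadjusted p under 0.05, against 1673 and 929 of 13938 genes. In Puf60_mEx5_HOM 0 of 32 members were called by limma at DIV7, against 0.395% of all genes. An unadjusted p under 0.05 was found for 3 of them, against 2244 of 13938 genes. In the authors' deposited table the FDR was under 0.05 for 1 of the 33 members, a lower one, against 0.272% of its genes. By sign in the limma fit, 28 members were lower than in WT and 3 higher, with a median of -0.22, against 0.01 over all genes. The largest changes there were those of Dppa5a (-1.11 ± 0.78, adjusted p = 0.527) and Pou5f1 (-0.84 ± 0.84, adjusted p = 0.683).

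**Figure D3:**
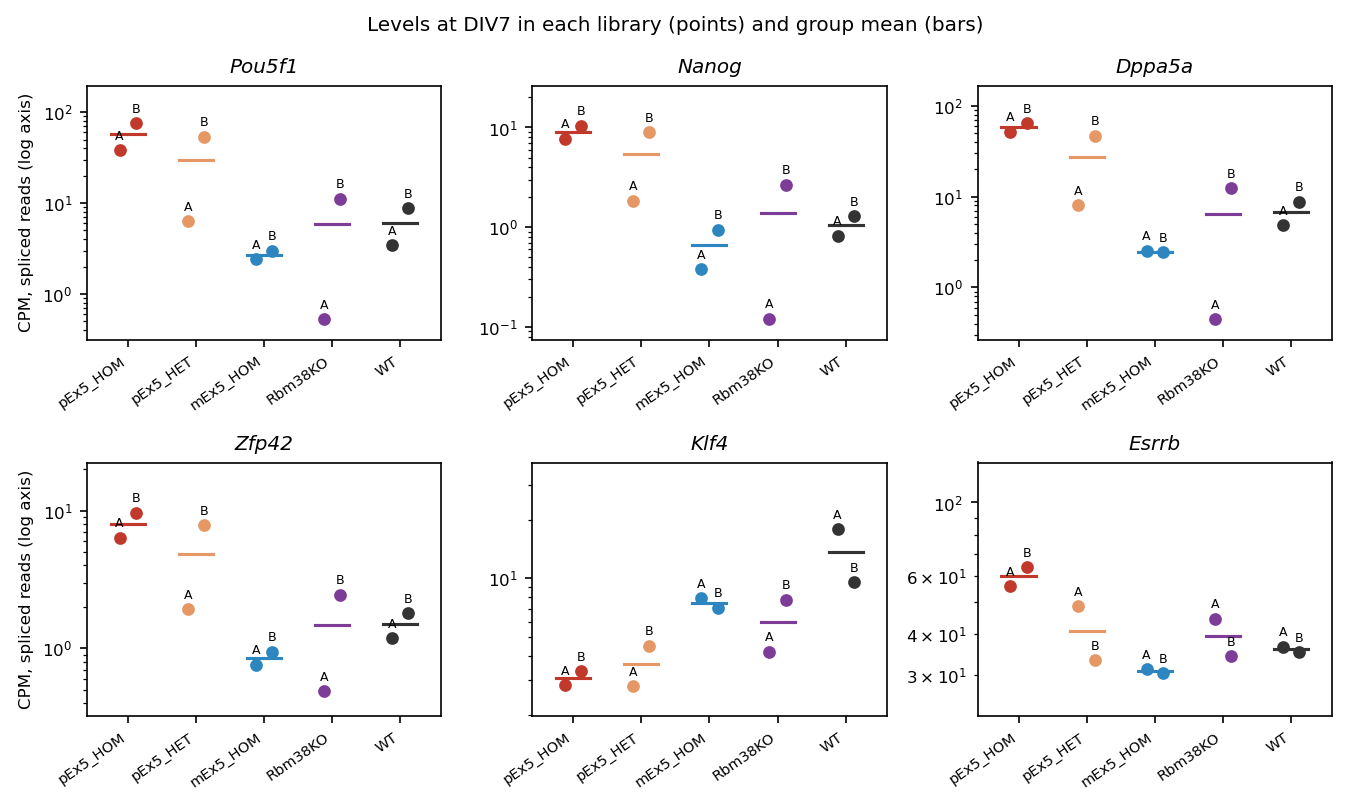
CPM (log axis) of 6 members at DIV7 in each library (points, labelled A and B) with the group mean (bars), for the 4 edited lines and, on the right, WT. Pou5f1, Nanog, Dppa5a and Zfp42 are highest in Puf60_pEx5_HOM and in Puf60_pEx5_HET B and lowest in Rbm38KO A, Klf4 is highest in WT (17.9 and 9.57 CPM), and Esrrb spans only 30.5 to 63.6 CPM.

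Replicates of a line differed widely at DIV7. In Puf60_pEx5_HET the B library was above the A library for 29 of 32 members with a median ratio of 4.44, and in Rbm38KO for 28 members with a median ratio of 4.39. In WT it was above for 19 with a median ratio of 1.20, and in Puf60_pEx5_HOM for 27 with a median ratio of 1.47. A spread of this size limits what can be called: without Puf60_pEx5_HOM B, or without WT A, 3 members were called in Puf60_pEx5_HOM in place of 15, and with the DIV7 libraries fitted alone 2 were (Fgf4 higher and Klf4 lower). Without Puf60_pEx5_HET A, 7 members were called in Puf60_pEx5_HET in place of 1. In the authors' deposited table the FDR was under 0.05 for 20 of the 33 members in Puf60_pEx5_HOM at DIV7, 18 higher and 2 lower, against 4.98% of its genes. Their 2 lower genes were Klf4 (log2 change -2.08) and Nr5a2 (-1.04).

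Puf60_mEx5_HOM against Puf60_pEx5_HOM at DIV7 set the lines with the least and the most exon 5 side by side. The lines also differed in the authors' RPKM of Puf60 itself, 77.97 against 109.79, and the part of this difference was not tested. Of 32 members 16 were called lower in Puf60_mEx5_HOM, against 1.25% of all genes, and 1 was called higher, against 1.54%. Dppa5a (-4.07 ± 0.78, adjusted p = 0.00199), Pou5f1 (-3.89 ± 0.84, adjusted p = 0.00469) and Nanog (-2.61 ± 0.52, adjusted p = 0.0024) led the differences, with values given above. Klf4 was the gene called higher (1.05 ± 0.23, adjusted p = 0.00331). Besides the 14 members called against WT, the lower genes included Fbxo15 and Trim71. Fbxo15, an F-box protein gene that Pou5f1 and Sox2 switch on, had 0.970 and 1.77 CPM in Puf60_mEx5_HOM, against 7.23 and 8.78 CPM in Puf60_pEx5_HOM (-1.94 ± 0.56, adjusted p = 0.0222). Trim71 had 0.337 and 0.471 CPM in Puf60_mEx5_HOM, against 1.60 and 2.60 CPM in Puf60_pEx5_HOM (-1.12 ± 0.27, adjusted p = 0.00578). With DIV7 fitted alone 5 members were called, all lower in Puf60_mEx5_HOM.

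Set against each line's own ESC level, the members kept a small and rather even share at DIV7 in Puf60_pEx5_HOM. The median member was at 2.51 and 3.68% of its ESC mean in the Puf60_pEx5_HOM libraries, 0.880 and 3.87% in Puf60_pEx5_HET, 0.601 and 0.581% in Puf60_mEx5_HOM and 0.213 and 1.21% in Rbm38KO, against 0.920 and 1.04% in WT. Within 2-fold of that median lay 21 and 24 of 32 members in Puf60_pEx5_HOM, 12 and 25 in Puf60_pEx5_HET, 9 and 10 in Puf60_mEx5_HOM and 8 and 19 in Rbm38KO, against 10 and 16 in WT. Members with few reads scatter more by counting alone, and the part of this in the evenness was not tested. Esrrb, Lin28b, Gbx2 and Jam2 kept over 10% in every library. Klf4 kept 3.20 and 3.78% in Puf60_pEx5_HOM, near that line's median, against 25.6 and 13.6% in WT. Esrrb kept 12.9 and 14.7% in Puf60_pEx5_HOM, against 13.4 and 12.9% in WT, and Lin28b kept 38.2 and 52.5% in Puf60_pEx5_HOM, against 22 and 22.2% in WT. Gbx2 kept 84.5 and 70.8% in Puf60_pEx5_HOM, whose ESC level was low, against 36.8 and 28.6% in WT. Jam2 kept 19.7 and 12.3% in Puf60_pEx5_HOM, against 34 and 29.6% in WT, and Nr5a2 kept 6.53 and 7.14%, against 13.5 and 11.4% in WT.

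**Figure D4:**
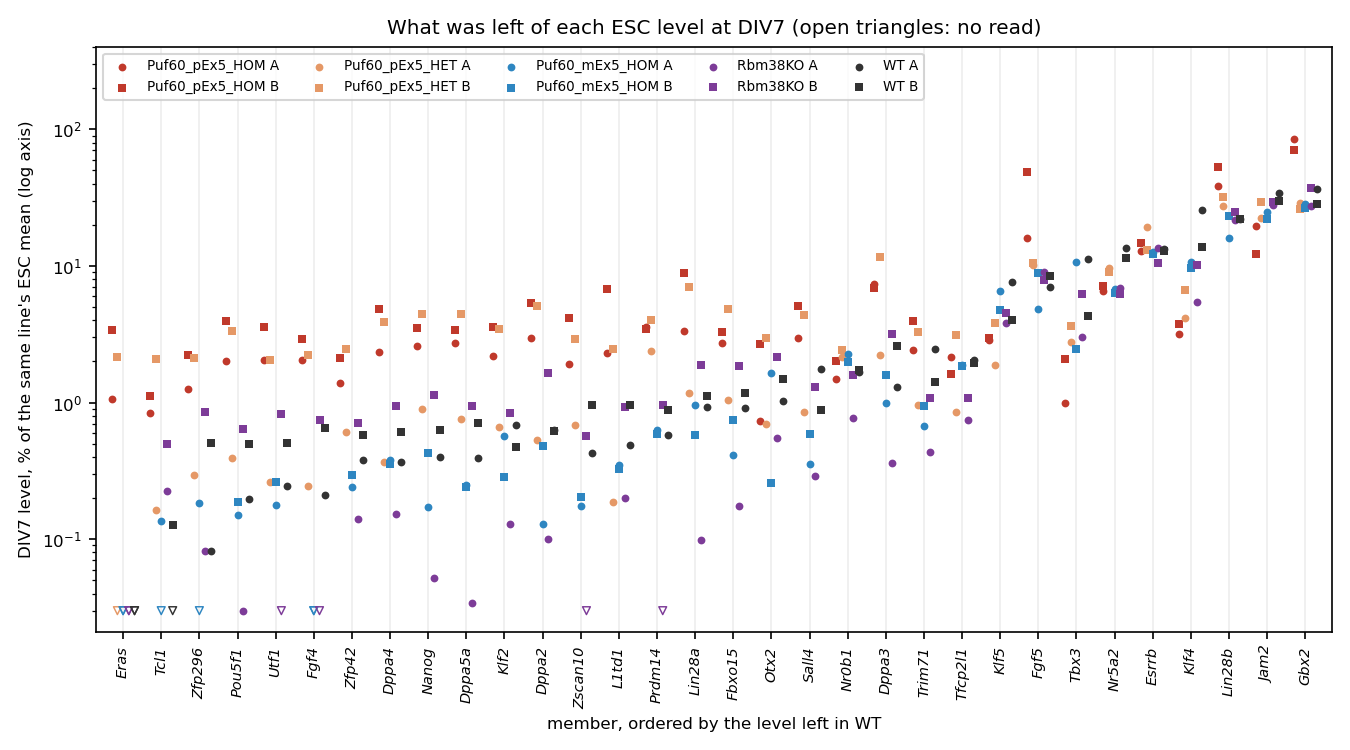
Level of each member at DIV7 as a percentage of the same line's ESC mean (log axis), for the 10 DIV7 libraries, with members ordered by what was left in WT and open triangles where a library had no read. Towards the left the Puf60_pEx5_HOM libraries and Puf60_pEx5_HET B lie together near their medians of 2.51 to 3.87%, above the WT points, and on the right Esrrb, Klf4, Lin28b, Jam2 and Gbx2 keep 12.9% or more of their ESC level in WT.

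Genes beside the network moved with it at DIV7 in Puf60_pEx5_HOM. Of 40 other naive and ground state genes 10 were called higher and 0 lower, against 0.868% of all genes higher and 1.70% lower, with a median of 0.44 against 0.04 over all genes. They were led by Dnmt3l (2.34), a cofactor of DNA methylation, Tdh (2.23), a threonine catabolism enzyme of ESCs, and Tdgf1 (2.06), a Nodal co-receptor. Of 14 genes of Nodal and BMP signalling 4 were called higher and 0 lower, among them Lefty1 (2.26) and Nodal (1.33). Of 15 germ cell genes 3 were called higher, led by Tfap2c (1.83), a factor that ESCs and germ cells share. The 4 measured genes of 2-cell-like cells summed to under 1 CPM in every DIV7 library.

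Markers of other cells differed at DIV7 as well. Of 16 endoderm genes 12 were called lower in Puf60_pEx5_HOM, against 1.70% of all genes, with a median of -2.47, and the 17 genes with introns summed to 889 and 572 CPM in Puf60_pEx5_HOM, 1692 and 1878 CPM in Puf60_pEx5_HET, 4895 and 3591 CPM in Puf60_mEx5_HOM and 1680.0 and 3062 CPM in Rbm38KO, against 8295 and 3596 CPM in WT. The largest differences from WT were those of Srgn (-4.56), Col4a1 (-3.79) and Lama1 (-3.32), and none of the 17 was at 0 in Puf60_pEx5_HOM or WT. Fibroblast and matrix genes summed to 547 and 350.1 CPM in Puf60_pEx5_HOM, against 2282 and 723 CPM in WT, and astrocyte and radial glia genes to 2379 and 1204 CPM, against 2710 and 2580 CPM in WT. Of 17 neuron genes 0 were called by limma and 2 had an unadjusted p under 0.05, against 4184 of 13938 genes. The neuron genes summed to 9065 and 9951 CPM in Puf60_pEx5_HOM, against 8551 and 9960 CPM in WT. The part of these other cells in the DIV7 result was not tested.

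In a test of the difference in course between Puf60_pEx5_HOM and WT, Esrrb and Klf4 were called, a share of the members near that of all genes. For Esrrb the step from ESC to EB8 was larger downwards in Puf60_pEx5_HOM than in WT by -1.28 ± 0.33 (adjusted p = 0.0145), the 1 member of 32 called in this test of the difference, against 4.26% of all genes. Its step from EB8 to DIV7 was larger upwards by 1.33 ± 0.33 (adjusted p = 0.0143). Klf4 differed in the step from EB8 to DIV7, by -1.30 ± 0.33 (adjusted p = 0.0153), and these were the 2 members called there, against 4.06% of all genes. Each of these 3 calls was lost without 1 of several libraries. The first Esrrb call was lost without WT A or Puf60_pEx5_HOM B at ESC, or WT B or Puf60_pEx5_HOM B at EB8 (-0.98 to -1.24). The second was lost without either of these EB8 libraries, or WT A or Puf60_pEx5_HOM B at DIV7 (1.03 to 1.35), and that of Klf4 without WT B at EB8 (-1.27) or WT A at DIV7 (-0.87). Esrrb had 423 and 445 CPM at ESC, 3.56 and 2.33 CPM at EB8 and 55.9 and 63.6 CPM at DIV7 in Puf60_pEx5_HOM, against 258 and 290.3, 3.84 and 6.34, and 36.6 and 35.3 CPM in WT. For the other edited lines 0 members were called by limma in either step, against 1.36% and 0.861% of all genes for Puf60_mEx5_HOM, 0.0143% and 0.0359% for Puf60_pEx5_HET and 0.00717% and 0.0359% for Rbm38KO. In the step from ESC to EB8 3, 1 and 0 members of these lines had an unadjusted p under 0.05, against 2746, 901 and 730 of 13938 genes. In the step from EB8 to DIV7 these were 3, 5 and 1 members, against 2091, 1541 and 1487 genes.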

How the data were processed

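RNA-seq was deposited for 30 libraries of mouse CGR8 cells, 2 per line and stage. The authors deposited RPKM as 1 value per group, with log2 fold changes, FDR and p-values of each edited line over WT, per the file headers. Their splicing table, in the format of vast-tools, holds PSI in percent per library and quality strings (data of another kind) with read numbers, per the file headers. The submitters' processing notes name mm10, Salmon 0.14.1 and edgeR, and the sources used here do not give how these were applied, nor how reads of processed pseudogenes, which several members have, were placed. Per-sample columns of no sample of this series numbered 0.

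Because no deposited value gives expression per library, exon-exon junction reads of 189118 intron events were summed per gene and library. Reads were scaled by median-of-ratios factors to CPM, genes reaching 1 CPM in 2 or more libraries were retained, and log2(CPM + 1) was fitted with limma 3.58.1 in R 4.3.3 (trend and robust settings, 15 group means). This scale understates changes of low genes. Differences between lines in a stage step were tested as interaction terms. Splicing was fitted with limma on log2 ratios of inclusion to exclusion reads, with 1 read added to both, where every compared library had 10 reads or more and mean PSI was 5 to 95. Deposited RPKM values were read as single values, and edgeR results only as the authors' deposited table gives them. Simulated data were used to test the scripts. Floors of 3 reads cover counting error only.

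The members, gene lists and named-gene rule were chosen with earlier results of these data known. All 33 members were accounted for: members called in a comparison were named with their values (between WT stages, the 4 largest and 2 smallest changes, members against the majority and the core trio), or the 2 largest changes where none was called. Outside the members, at most 3 called genes per list were named, and splicing events were named where called or, per stage, as the 2 deepest cassette exons. Junction ends were read against GENCODE M21 and promoters came from RefSeq GRCm38.p6. Junctions of overlapping genes cannot be separated. Alternatives covered scaling, pseudocount, filters, voom weights, single-stage fits, a replicate block, read minimums and leaving out each library. No sequence of a protein was used here. The DIV7 result of the formative and primed epiblast list is not reported here.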

Additional observations from a re-analysis of the deposited data

Results flagged for a closer look

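Esrrb was flagged because its course differed between lines in a test of the difference itself: from ESC to EB8 the log2 change in Puf60_pEx5_HOM minus that in WT was -1.28 ± 0.33 (limma, adjusted p = 0.0145). From EB8 to DIV7 the same difference for Esrrb was 1.33 ± 0.33 (adjusted p = 0.0143), and both libraries of Puf60_pEx5_HOM were below both WT libraries at EB8 and above both at ESC and DIV7. Each call was lost without 1 of 4 libraries, with -0.98 to -1.24 for the earlier step and 1.03 to 1.35 for the later one.

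Klf4 was flagged in the same way from EB8 to DIV7, where the difference was -1.3 ± 0.33 (adjusted p = 0.0153). In WT Klf4 had 17.9 and 9.57 CPM at DIV7, against 5.07 and 4.87 CPM at EB8, while in Puf60_pEx5_HOM it had 2.84 and 3.35 CPM at DIV7, against 3.29 and 3.19 CPM at EB8. The call was lost without WT B at EB8 (-1.27), without WT A at DIV7 (-0.87), with a pseudocount of 4 (-0.97) and with only those stages fitted (adjusted p = 0.0549).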

How the results depend on the processing

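Each count of called members or events was refitted under every alternative: of 510 such counts 436 stayed within 1.5 times the main count and 74 did not. Of 1648 refitted values of the 120 called members and events, 0 changed direction and 142 lost the call. For Puf60_mEx5_HOM against Puf60_pEx5_HOM at EB8 (main count 2), total-read scaling, quantile scaling and a pseudocount of 0.25 gave 4 each, a pseudocount of 4 and no filter gave 1 each, voom gave 7 and EB8 alone gave 6. At ESC voom gave 2 (main 1) in that comparison, and at DIV7 a pseudocount of 4 gave 11 and DIV7 alone 5 (main 17). For Puf60_pEx5_HOM at ESC (main 1), quantile scaling and a pseudocount of 4 gave 0, and a pseudocount of 0.25 and voom gave 2. Its DIV7 count (main 15) was 2 with DIV7 alone. Puf60_mEx5_HOM at EB8 (main 0) had 1 with a pseudocount of 0.25 or EB8 alone and 2 with voom. The Rbm38KO call at DIV7 (main 1) became 0 with either pseudocount, no filter, voom or DIV7 alone, and the Puf60_pEx5_HET call (main 1) became 0 with DIV7 alone. From EB8 to DIV7 the WT count (main 9) was 4 with a pseudocount of 4. The difference between Puf60_pEx5_HOM and WT in that step (main 2) gave 4 with quantile scaling or a pseudocount of 0.25, and 1 with a pseudocount of 4 or only those stages fitted, and the difference for Puf60_mEx5_HOM from ESC to EB8 (main 0) gave 1 in that last fit. A minimum of 20 reads left 1 WT splicing event from ESC to EB8 (main 2) and 0 from EB8 to DIV7 (main 1). With no limit on mean PSI these were 4 and 2, and the Puf60_pEx5_HOM events at ESC (main 4) became 0, with adjusted p of 0.104 to 0.203. The causes were not tested.

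Leaving out 1 library in turn gave 30 to 31 calls for WT from ESC to EB8 and 7 to 10 from EB8 to DIV7. Puf60_pEx5_HOM had 0 to 1 at ESC and 3 to 14 at DIV7, Puf60_mEx5_HOM 0 to 1 at EB8 and at DIV7, Puf60_pEx5_HET 1 to 7 and Rbm38KO 0 to 1 at DIV7. Puf60_mEx5_HOM against Puf60_pEx5_HOM had 1 to 2, 1 to 4 and 12 to 17 at the 3 stages. Differences in a step ranged from 0 to 5 for Puf60_pEx5_HOM from EB8 to DIV7, 0 to 2 for Puf60_pEx5_HET there, and 0 to 1 for the other differences that moved. Splicing calls were 2 to 4 in Puf60_pEx5_HOM at ESC, and 2 to 7 and 1 to 2 for the WT steps. The Gbx2 change in Puf60_pEx5_HOM ESCs was -0.95 without Puf60_pEx5_HOM B and -0.96 without WT B, and so was not called.

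The labels do not say that replicate letters pair libraries across lines. Deviations of same-lettered libraries from their group means correlated at 0.32 to 0.53 in all 10 pairs of lines at ESC and at -0.26 to 0.62 at EB8. With 2 letters this is a hint from the data, not the design. At DIV7 they correlated with those of WT at 0.29 for Puf60_pEx5_HOM, 0.57 for Puf60_mEx5_HOM, -0.20 for Puf60_pEx5_HET and -0.21 for Rbm38KO. Those of Puf60_pEx5_HET and Rbm38KO correlated with each other at 0.60, the highest value of any pair at DIV7. With the letter as a replicate block, Puf60_mEx5_HOM against Puf60_pEx5_HOM at EB8 had 4 calls, the difference from EB8 to DIV7 of Puf60_pEx5_HOM 8, Rbm38KO at DIV7 0, splicing in Puf60_pEx5_HOM at DIV7 1 and in WT from EB8 to DIV7 2. No other count moved past 1.5 times. Crossing the letters of Puf60_pEx5_HET and Rbm38KO at DIV7, chosen after seeing the data, left 1 call each. Total-read scaling moved the median of all genes to 0.42 from ESC to EB8 and 0.32 from ESC to DIV7 in WT, and quantile scaling to -0.18 from ESC to DIV7. At DIV7 a library held 23204150 to 28655479 reads, so members at fractions of a CPM rest on few reads.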
